A study of Homo sapiens with 18 samples.

Results

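The endoplasmic reticulum (ER) J-domain co-chaperones are 8 genes whose products reside in the lumen or the membrane of the ER. DNAJB9, DNAJB11, DNAJC3 and DNAJC10 encode lumenal proteins, DNAJC1 and DNAJC25 encode membrane proteins, and DNAJB12 and DNAJB14 encode membrane proteins whose J domain faces the cytosol. They were found by symbol among the 57736 Ensembl genes of the count table. All 8 were matched, each to 1 gene, and all 8 passed the filter on low counts that left 17317 genes for testing.

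mRNA was counted in A1847, a human ovarian cancer cell line, in 6 groups of 3 libraries, 18 in all. The 3 genotypes were control cells labelled wild type for CARM1 and XBP1 (WT), cells with a knockout of CARM1 (koCARM1), an arginine methyltransferase, made with 1 CRISPR guide delivered by lentivirus, and cells with a short hairpin RNA against XBP1 (shXBP1), which encodes a transcription factor of the ER stress response. Each genotype received vehicle (ctr) or tunicamycin (TM) at 5 μg/ml for 8 h. Whether the knockout was 1 clone and whether the WT cells carried a control vector are not given in the sources used here. The labels number the replicates but do not say whether these were separate cultures, so p-values measure the spread between libraries.

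A J-domain protein binds an Hsp70 chaperone and speeds its hydrolysis of ATP, so that the Hsp70 closes on an unfolded client. In the ER lumen the Hsp70 is BiP, encoded by HSPA5, and the different J-domain proteins direct it to folding, to import through the translocon or to degradation of misfolded proteins. Tunicamycin blocks N-linked glycosylation, and unfolded proteins then activate the sensors IRE1, PERK and ATF6, whose downstream transcription factors, among them the spliced form of XBP1, raise many chaperone genes.

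Library totals ranged from 9367462 to 13917212 counts, and the 8 genes had 37 to 8637 counts per library. Levels are given as CPM, counts relative to the library total, scaled with the trimmed mean of M-values (TMM). The SD of the CPM within a group was 0.803 to 16.7% of the mean over the 48 gene and group values, with a median of 3.61%. CARM1 was at 160 to 165 CPM in the WT ctr libraries, 71.6 to 77.7 in koCARM1 ctr, 133 to 140 in WT TM and 67.4 to 76.2 in koCARM1 TM. These counts come from the 3′ end of the transcript and do not measure what the guide changed in the coding sequence. XBP1 was at 43.3 to 51.1 CPM in WT ctr and 24.1 to 26.5 in shXBP1 ctr, and at 148 to 153 in WT TM and 69.0 to 73.7 in shXBP1 TM.

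The koCARM1 libraries also stood apart in genes that mark cell types. PAX8, a Müllerian lineage factor, had 465 to 840 counts in each koCARM1 library and at most 2 in any WT or shXBP1 library. Over 8 epithelial and Müllerian markers, of which 4 exceeded 3 counts in at least 1 library of WT ctr and 6 in koCARM1 ctr, the summed level was 311 to 489 CPM in WT, 1881 to 2340 in koCARM1 and 131 to 214 in shXBP1. MUC16 was at 0 counts in all libraries, and WT1 had at most 2 counts outside the koCARM1 libraries. KRT19 was at 0 in the koCARM1 libraries, at 4 counts or fewer in the shXBP1 libraries and at 5 to 44 in WT. In shXBP1 ctr against WT ctr, KRT8, KRT18 and KRT19 were called lower, by −1.61, −1.19 and −3.20 on the log2 scale. EPCAM, CDH1, PAX8 and WT1 were not called there, and 3.03% of all genes tested were called lower. The part of these markers in the shXBP1 results below was not tested. Of 4 fibroblast markers, 4 exceeded 3 counts in at least 1 library of each WT and shXBP1 group and 2 did in each koCARM1 group, with sums of 711 to 886, 581 to 859 and 184 to 495 CPM. COL1A2 was at a mean of 823 CPM in WT ctr and 0.247 in koCARM1 ctr, and COL1A1 at 14.95 and 479. Over the whole table, 138 genes had at most 3 counts in every WT library and at least 100 in every koCARM1 library, and 35 had the converse. Whether the koCARM1 and WT libraries come from cells of the same origin was not tested, nor was the part of these differences in the koCARM1 results below, so each koCARM1 value compares the libraries as labelled. In bulk RNA, fewer cells of a type and less RNA per cell cannot be told apart.

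The 250 bases before the RefSeq start site are shown for 4 of the 8 genes. Their promoters differ in exact matches to elements known to bind ER stress factors, while all 4 genes rose with tunicamycin in WT cells. The sequences are from RefSeq windows and are placed on GRCh37 by an exact match. They are written 5′ to 3′ on the strand of the gene, and capitals mark a motif that was found. DNAJC10 holds a UPR element, TGACGTGG, read here on the other strand. DNAJB11 and DNAJC25 hold the shorter core ACGTCA, also on the other strand. DNAJB9 is shown because it had the largest response of the 8 genes and holds no exact match to any of the 4 motifs searched.
DNAJB9, chr7:108210068-108210317, plus strand: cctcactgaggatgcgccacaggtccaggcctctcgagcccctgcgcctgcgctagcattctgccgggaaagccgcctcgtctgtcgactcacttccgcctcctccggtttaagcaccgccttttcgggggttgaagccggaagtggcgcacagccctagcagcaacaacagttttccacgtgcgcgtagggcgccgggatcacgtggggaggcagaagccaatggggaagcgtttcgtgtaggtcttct
DNAJB11, chr3:186288259-186288508, plus strand: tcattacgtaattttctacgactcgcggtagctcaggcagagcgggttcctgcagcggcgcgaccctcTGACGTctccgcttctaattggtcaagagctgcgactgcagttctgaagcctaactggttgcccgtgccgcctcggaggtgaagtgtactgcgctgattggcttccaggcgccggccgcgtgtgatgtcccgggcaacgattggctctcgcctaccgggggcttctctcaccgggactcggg
DNAJC10, chr2:183580734-183580983, plus strand: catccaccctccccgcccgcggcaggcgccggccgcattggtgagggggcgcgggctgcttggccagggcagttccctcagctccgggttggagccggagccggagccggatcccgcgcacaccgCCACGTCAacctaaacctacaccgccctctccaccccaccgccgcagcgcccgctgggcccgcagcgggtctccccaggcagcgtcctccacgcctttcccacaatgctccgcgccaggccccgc
DNAJC25, chr9:114393364-114393613, plus strand: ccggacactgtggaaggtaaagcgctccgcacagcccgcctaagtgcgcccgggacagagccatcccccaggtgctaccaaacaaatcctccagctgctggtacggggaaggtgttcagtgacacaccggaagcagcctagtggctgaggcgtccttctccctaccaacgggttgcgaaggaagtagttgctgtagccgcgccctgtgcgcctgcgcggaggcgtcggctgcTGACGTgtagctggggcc

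Both strands of a window from 250 bases before to 50 after the start were searched for 4 motifs in 7 of the 8 genes. Only exact matches were counted, so a site that differs from a motif in any letter was missed. DNAJC1 was not in the promoter table. The UPR element of DNAJC10 lies 125 to 118 bases before the start, and it contains the core ACGTCA. The UPR element was present in 256 of 35116 RefSeq promoters (0.729%). The core lies 182 to 177 bases before the start in DNAJB11 and 18 to 13 in DNAJC25, and 2803 promoters held it (7.98%). No window of the 7 held the ER stress element, CCAAT followed after 9 bases by CCACG, which 27 promoters held (0.0769%). None held the ER stress element II, ATTGG followed after 1 base by CCACG, which 19 held (0.0541%). DNAJC3, DNAJB12 and DNAJB14 held no exact match to the 4 motifs in this window. The DNAJC3 window, for one, holds CCTAT followed after 9 bases by CCACG, which was not counted. The DNAJB9 window holds CCACGTG and, further on, CACGTGG, which carries CCACG on the other strand, and neither was counted. The start used for DNAJB11 lies 3317 bases inside the annotated 5′ end of the gene, and that for DNAJB12 lies 230 bases inside it.

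Tunicamycin raised all 4 lumenal co-chaperone genes in WT cells. The comparison asks which of the 8 genes take part in the response to ER stress. DNAJB9 (ENSG00000128590), whose product helps to deliver misfolded proteins to degradation and to hold IRE1 inactive with BiP, lies on chr7:108210311-108215294 of GRCh37. It was at 6.65, 8.40 and 7.23 CPM in the 3 WT ctr libraries and at 104, 99.9 and 108 in the 3 WT TM libraries. The lowest TM library was thus far above the highest ctr library, with a 14.1-fold change. Its log2 fold change exceeded those of 99.5% of all genes tested.

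DNAJC3 (ENSG00000102580, chr13:96329393-96447242) encodes P58IPK, which passes clients to BiP. It was at 69.3, 75.7 and 59.7 CPM in WT ctr and at 457, 412 and 438 in WT TM. The groups did not overlap, and the change was 6.44-fold, or 2.69 on the log2 scale (standard error 0.0765, edgeR quasi-likelihood adjusted p = 1.05e-13).

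DNAJB11 (ENSG00000090520, chr3:186285192-186303589) encodes ERdj3, a soluble protein that binds unfolded and nascent chains. It was at 117, 121 and 115 CPM in WT ctr and at 606, 635 and 635 in WT TM. Every TM library exceeded every ctr library, by 2.42 on the log2 scale (standard error 0.0534, edgeR quasi-likelihood adjusted p = 5.21e-15). The gene overlaps TBCCD1 and HRG-AS1 on the opposite strand. These had 21 to 88 and 7 to 39 counts per library, and the strand setting of the counting is not given in the sources used here.

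DNAJC10 (ENSG00000077232, chr2:183580982-183659191) encodes ERdj5, a reductase that opens disulfide bonds of proteins bound for degradation. It was at 93.1, 102 and 87.1 CPM in WT ctr and at 327, 331 and 347 in WT TM. The groups were apart, with a log2 fold change of 1.84 (standard error 0.0633, edgeR quasi-likelihood adjusted p = 1.12e-12). This was the smallest response among the 4 lumenal members and exceeded 97.0% of all genes tested.

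The membrane members with a J domain in the lumen rose less. DNAJC1 (ENSG00000136770, chr10:22045477-22292698, minus strand), which binds ribosomes at the translocon, was at 126, 128 and 124 CPM in WT ctr and at 205, 210 and 203 in WT TM. Its libraries were tight and the groups apart, with a log2 fold change of 0.72 (standard error 0.0529, edgeR quasi-likelihood adjusted p = 1.27e-08). DNAJC25 (ENSG00000059769, chr9:114393614-114416631) was at 24.4, 26.3 and 22.4 CPM in WT ctr and at 37.01, 40.93 and 33.65 in WT TM. Its groups were also apart, and it rose by 0.62 on the log2 scale (standard error 0.0948, edgeR quasi-likelihood adjusted p = 5.20e-05). It shares its locus with the readthrough gene DNAJC25-GNG10, which had 0 to 22 counts per library, so that its own count is uncertain by what the counting assigned there.

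The 2 members with a cytosolic J domain work with the cytosolic Hsp70 HSPA8 on membrane proteins, and neither passed the test in WT cells. DNAJB12 (ENSG00000148719, chr10:74092588-74114907, minus strand) was at 46.7, 48.8 and 41.5 CPM in WT ctr and at 47.8, 52.6 and 50.1 in WT TM. The ranges overlapped, with a log2 fold change of 0.15 (standard error 0.0785, edgeR quasi-likelihood adjusted p = 0.147). DNAJB14 (ENSG00000164031, chr4:100817405-100867775, minus strand) was at 64.6, 67.8 and 67.5 CPM in WT ctr and at 74.2, 71.9 and 70.6 in WT TM. Its ranges did not overlap, but the difference of 0.13 on the log2 scale did not pass (standard error 0.0623, edgeR quasi-likelihood adjusted p = 0.117). In all, 6 of 8 members were higher in WT TM and 0 lower, against a background of 22.0% of all genes tested called higher and 19.9% called lower. The median log2 fold change was 1.28 over the members and 0.00 over all genes tested.

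**Figure D1:**
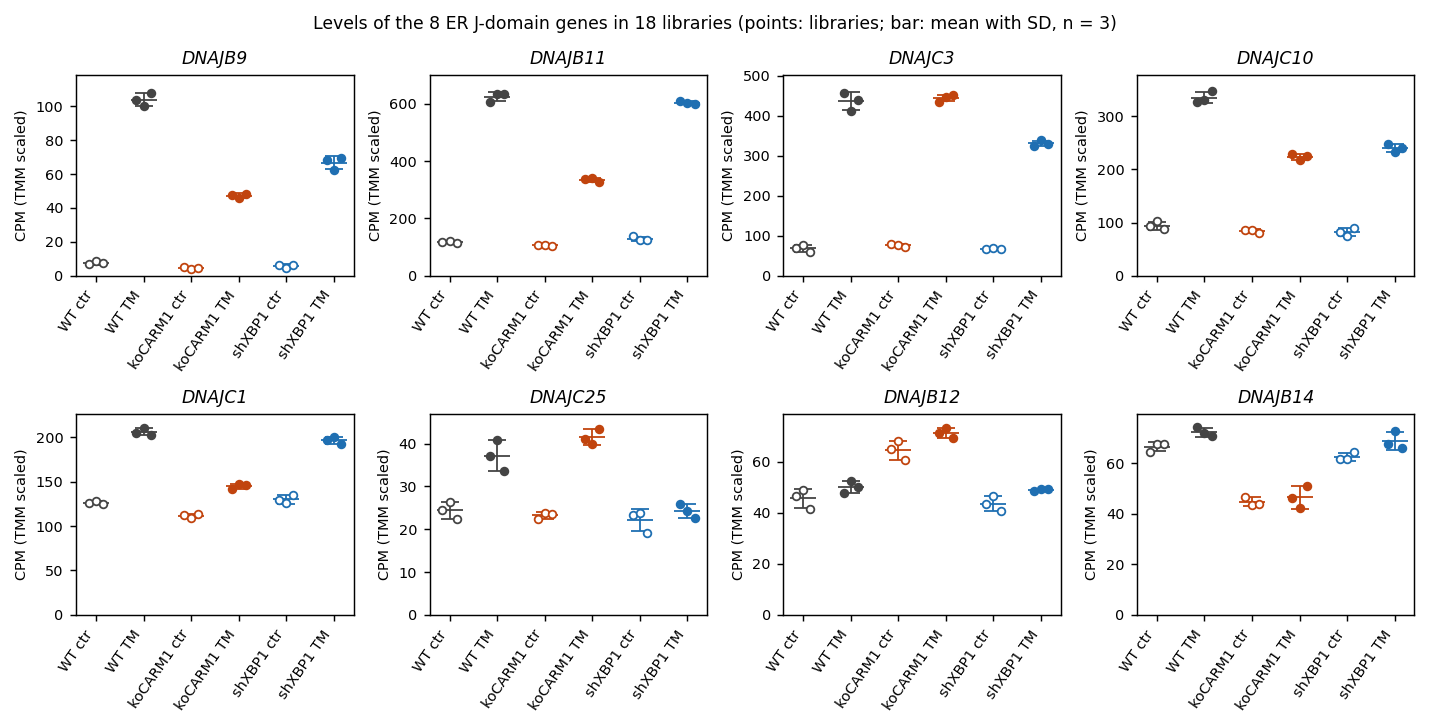
Level of each of the 8 genes in CPM, TMM scaled, on linear axes that start at 0, in the 6 groups. Points are libraries, open for ctr and filled for TM, and bars give the mean and SD (n = 3); DNAJB9, DNAJB11, DNAJC3 and DNAJC10 show TM libraries above all ctr libraries in every genotype, while DNAJB12 and DNAJB14 stay between 40.7 and 74.2 CPM.

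The lumenal members also rose with tunicamycin in both modified genotypes. In koCARM1 cells, 7 of 8 members were higher and 0 lower, against 20.6% and 18.8% of all genes tested. In shXBP1 cells, 5 of 8 were higher and 0 lower, against 19.2% and 19.0%. The medians over the members were 1.16 and 1.06 on the log2 scale. DNAJB9 rose by 3.46 in koCARM1 (standard error 0.105) and by 3.52 in shXBP1 (standard error 0.106), so it had the largest response of the 8 genes in all 3 genotypes. DNAJC3 rose by 2.57 and 2.29, DNAJB11 by 1.70 and 2.22, and DNAJC10 by 1.44 and 1.53. DNAJC10 had the smallest response of the 4 in each genotype.

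DNAJC1 rose by 0.42 in koCARM1 and 0.59 in shXBP1. DNAJC25 passed in koCARM1 and not in shXBP1. It was at 22.4, 23.7 and 23.6 CPM in koCARM1 ctr and at 41.0, 40.0 and 43.5 in koCARM1 TM, a log2 fold change of 0.88 (standard error 0.0758, edgeR quasi-likelihood adjusted p = 3.82e-09). In shXBP1 it was at 23.4, 23.7 and 19.1 CPM with ctr and at 25.8, 24.3 and 22.5 with TM. Those ranges overlapped, and the log2 fold change of 0.13 did not pass (standard error 0.102, edgeR quasi-likelihood adjusted p = 0.369).

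DNAJB12 passed in koCARM1, with 0.18 on the log2 scale (standard error 0.0546, edgeR quasi-likelihood adjusted p = 0.0128). It was at 64.9, 68.1 and 60.6 CPM with ctr and at 71.5, 73.3 and 69.2 with TM. The call was lost without koCARM1 ctr replicate 3 (0.14, adjusted p = 0.0728) and without koCARM1 TM replicate 2 (0.16, adjusted p = 0.0642), in edgeR's quasi-likelihood test, and with all libraries in 1 fit (0.14, adjusted p = 0.101). In shXBP1, DNAJB12 had 0.16 (edgeR quasi-likelihood adjusted p = 0.0769), which passed without shXBP1 ctr replicate 2 (0.21, adjusted p = 0.0493). DNAJB14 had 0.09 in koCARM1 and 0.13 in shXBP1 and passed in neither.

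**Figure D2:**
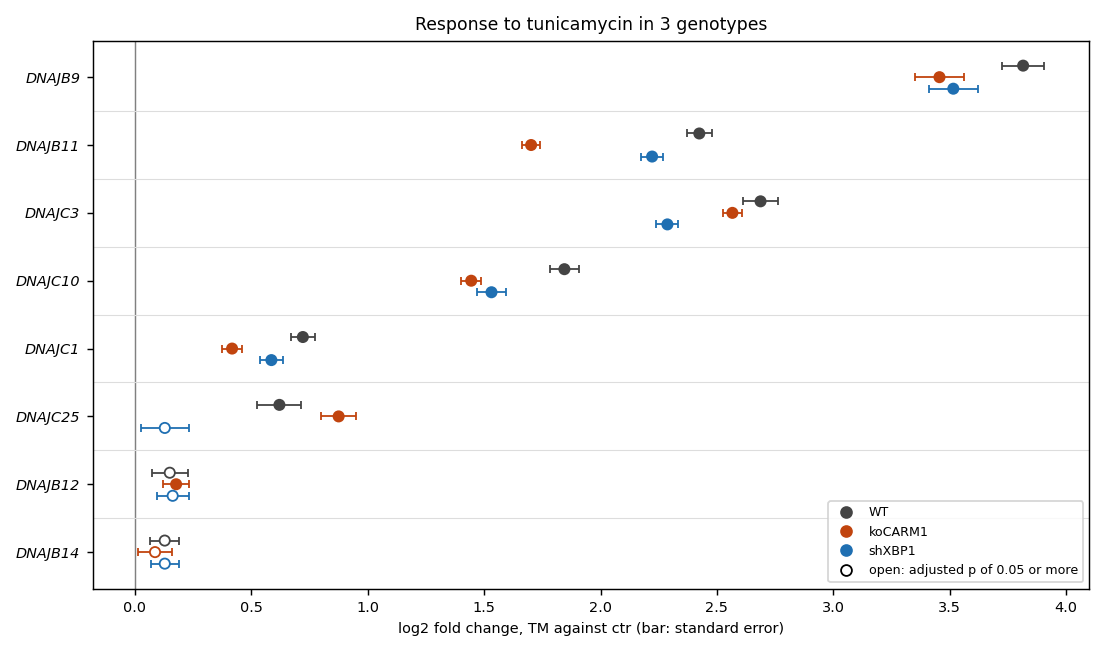
Log2 fold change of TM against ctr for the 8 genes in WT, koCARM1 and shXBP1 cells, with standard errors as bars and open symbols for an adjusted p of 0.05 or more. The 4 lumenal genes lie between 1.44 and 3.82, and DNAJB12 and DNAJB14 between 0.09 and 0.18.

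Without stress, 5 of 8 members were lower in koCARM1 than in WT cells and 1 was higher. This compares the level of the co-chaperones before stress in the libraries labelled koCARM1 and WT. Of all genes tested, 36.9% were lower and 37.5% higher in the same comparison, so most of the 17317 genes tested differed between these libraries. DNAJB9 was at 4.97, 3.94 and 4.24 CPM in koCARM1 ctr, below the 3 WT ctr libraries. It differed by −0.80 on the log2 scale (standard error 0.173, edgeR quasi-likelihood adjusted p = 6.54e-04). DNAJB14 was at 46.8, 43.6 and 44.1 CPM, also below every WT ctr library, with a log2 fold change of −0.61 (standard error 0.0632, edgeR quasi-likelihood adjusted p = 3.04e-07).

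DNAJC1, DNAJB11 and DNAJC10 differed by little, at −0.22, −0.20 and −0.20 on the log2 scale. The call of DNAJC10 was lost without WT ctr replicate 2 (−0.12, edgeR quasi-likelihood adjusted p = 0.113) and in DESeq2 (−0.16, adjusted p = 0.0507). DNAJB12 was the 1 member that was higher, with a log2 fold change of 0.46 (standard error 0.0744, edgeR quasi-likelihood adjusted p = 4.45e-05), and all 3 of its koCARM1 ctr libraries lay above the WT ctr libraries. DNAJC3 had 0.12 and DNAJC25 had −0.12, and neither passed. DNAJC3 passed without WT ctr replicate 2 (0.23, edgeR quasi-likelihood adjusted p = 0.0145).

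Under tunicamycin, the same 5 members were lower in koCARM1 than in WT cells and DNAJB12 again was higher. The background was 36.8% lower and 38.4% higher. DNAJB9 was at 47.5, 45.9 and 48.5 CPM in koCARM1 TM, and every one of these libraries lay below the 99.9 CPM of the lowest WT TM library. Its level was 2.19-fold lower. DNAJB11 was at 336, 341 and 326 CPM in koCARM1 TM against 606 or more in WT TM. It differed by −0.90 on the log2 scale (standard error 0.0406, edgeR quasi-likelihood adjusted p = 2.77e-11).

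DNAJC10 was at 229, 218 and 225 CPM in koCARM1 TM, below the 327 to 347 of WT TM, with a log2 fold change of −0.57 (standard error 0.0434, edgeR quasi-likelihood adjusted p = 1.16e-08). DNAJB14 was at 46.2, 42.1 and 51.1 CPM and differed by −0.63. DNAJC1 was at 141, 147 and 146 CPM and differed by −0.50. The libraries of both genes lay below those of WT TM. DNAJB12 was at 71.5, 73.3 and 69.2 CPM, above all WT TM libraries, and differed by 0.51 (standard error 0.0606, edgeR quasi-likelihood adjusted p = 1.84e-06).

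DNAJC3 was the 1 lumenal member that did not pass. It was at 434, 446 and 450 CPM in koCARM1 TM, within the range of 412 to 457 in WT TM. The log2 fold change of 0.03 did not pass (standard error 0.0444, edgeR quasi-likelihood adjusted p = 0.520), and its sign turned without WT TM replicate 2 (−0.01). DNAJC25 had 0.17 (edgeR quasi-likelihood adjusted p = 0.0735) and passed without WT TM replicate 2 (0.23, adjusted p = 0.0182). The koCARM1 comparisons with ctr and with TM use separate libraries.

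**Figure D3:**
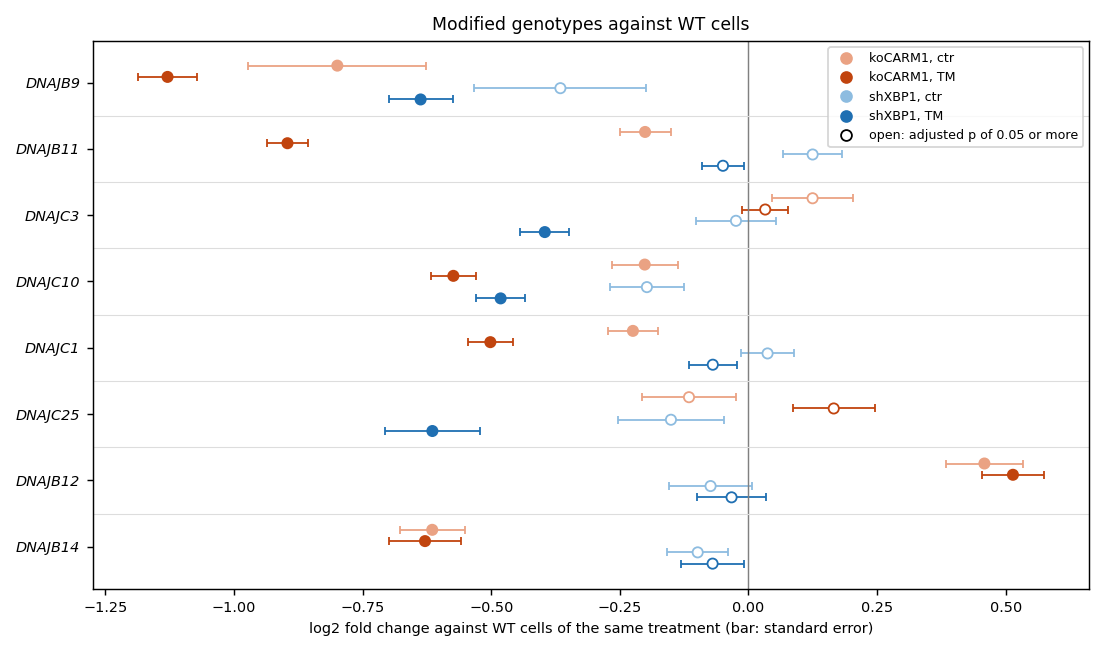
Log2 fold change of koCARM1 and shXBP1 cells against WT cells of the same treatment, with standard errors as bars and open symbols for an adjusted p of 0.05 or more. DNAJB9 was lower in koCARM1 under both treatments, DNAJC3 was lower in shXBP1 under TM (−0.40) and near 0 in koCARM1 under TM (0.03), and DNAJB12 was higher in koCARM1 under both treatments.

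Whether the response itself differed was tested as the interaction of genotype and treatment. In koCARM1 cells, 3 of 8 members responded less than in WT cells and 0 responded more, against 12.4% and 10.5% of all genes tested. DNAJB11 had the largest difference, with an interaction term of −0.74 (standard error 0.0602, edgeR quasi-likelihood adjusted p = 1.79e-08), as its 5.37-fold response in WT cells was 3.25-fold in koCARM1. DNAJC10 followed with −0.42 (standard error 0.0769, edgeR quasi-likelihood adjusted p = 4.10e-04). DNAJC1 had −0.32 (standard error 0.0626, edgeR quasi-likelihood adjusted p = 6.61e-04). These 3 calls held in every fit with 1 library left out.

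The interaction terms of the other members did not pass. DNAJB9 had −0.38 (standard error 0.151, edgeR quasi-likelihood adjusted p = 0.0807), its koCARM1 level being lower with ctr as well, and ran from −0.46 without koCARM1 ctr replicate 2 to −0.24 without WT ctr replicate 1. DNAJC3 had −0.14, DNAJB14 had −0.06 and DNAJB12 had 0.01. DNAJC25 had 0.23 (edgeR quasi-likelihood adjusted p = 0.182), which passed without WT ctr replicate 3 (0.36, adjusted p = 0.0331) or without WT TM replicate 2 (0.37, adjusted p = 0.0321).

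The genes around each member were set beside these values, since the koCARM1 libraries differed from WT over much of the genome. Among genes tested within 2 Mb of DNAJB9, the median log2 fold change of 16 neighbours in koCARM1 against WT was −0.72 with ctr and −0.70 with TM, beside −0.80 and −1.13 for DNAJB9 itself, and the 38 within 5 Mb had −1.12 and −0.95. The 11 neighbours of DNAJC1 had medians of −1.65 and −1.63, beyond its −0.22 and −0.50, but within 5 Mb the medians of 36 were −0.53 and −0.65. The 26 neighbours of DNAJB11 had medians of 0.01 and −0.04, beside −0.20 and −0.90 for the gene. DNAJC10 had 8 neighbours with medians of 0.46 and 0.47, beside −0.20 and −0.57, but the 29 within 5 Mb had −0.27 and −0.49. DNAJB14, at −0.61 and −0.63, had 18 with medians of 0.14 and 0.03, but the 36 within 5 Mb had −0.21 and −0.30. DNAJB12, at 0.46 and 0.51, had 54 with −0.15 and 0.04, but the 96 within 5 Mb had 0.14 and 0.23. The sign of a median thus depended on the window for DNAJC10 and DNAJB14 and, with ctr, for DNAJB12 and DNAJB11. The 66 neighbours of DNAJB11 within 5 Mb had −0.14 and −0.27. The 10 neighbours of DNAJC3 had 0.01 and 0.11, and the 31 of DNAJC25 had 0.48 and 0.49. Whether copy number differs between the cells was not tested.

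With XBP1 knocked down and without stress, 0 of 8 members passed in edgeR's quasi-likelihood test, against 3.03% of all genes tested called lower and 2.07% higher. DESeq2 also called 0. Of all 17317 genes tested, 3207 had an unadjusted p under 0.05 in edgeR's quasi-likelihood test, and so did 3 members. These were DNAJC10 (log2 fold change −0.20), DNAJB9 (−0.37) and DNAJB11 (0.12). DNAJB9 was at 6.33, 4.68 and 6.39 CPM in shXBP1 ctr, each below the lowest WT ctr library of 6.65. The background count was itself unstable. The 524 genes called lower were 289 to 346 without any 1 of WT ctr replicates 1 and 2 and shXBP1 ctr replicates 2 and 3, and the 359 called higher were 146 to 228 without any 1 of these and 580 without WT ctr replicate 3.

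Under tunicamycin, 4 of 8 members were lower in shXBP1 than in WT cells and 0 were higher, against 8.55% and 6.99% of all genes tested. DNAJB9 was at 68.1, 62.3 and 69.7 CPM in shXBP1 TM, between the libraries of koCARM1 TM and WT TM, and 1.56-fold below WT TM. DNAJC10 was at 247, 232 and 240 CPM and differed by −0.48 on the log2 scale (standard error 0.0474, edgeR quasi-likelihood adjusted p = 4.48e-06). DNAJC3 was at 325, 338 and 330 CPM, below every WT TM library, and differed by −0.40 (standard error 0.0473, edgeR quasi-likelihood adjusted p = 3.17e-05). DNAJC25 differed by −0.61 (standard error 0.0923, edgeR quasi-likelihood adjusted p = 2.73e-04), its TM libraries lying among the ctr libraries of all genotypes. Over the whole table, the 1481 genes called lower were 906 without WT TM replicate 3, and the 1210 called higher were 617, 794 and 724 without WT TM replicate 3, shXBP1 TM replicate 2 and shXBP1 TM replicate 3.

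DNAJB11 was at 609, 603 and 598 CPM in shXBP1 TM and overlapped WT TM. Its log2 fold change of −0.05 did not pass (standard error 0.0406, edgeR quasi-likelihood adjusted p = 0.479). DNAJC1 had −0.07, DNAJB14 −0.07 and DNAJB12 −0.03, and none passed. Under tunicamycin DNAJB11 was thus called lower in koCARM1 and not in shXBP1, and DNAJC3 in shXBP1 and not in koCARM1. Both comparisons use the same WT TM libraries, and the 2 modified genotypes were not tested against each other.

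In the interaction test, 1 of 8 members responded less in shXBP1 than in WT cells and 0 responded more, against 1.67% and 0.364% of all genes tested. This was DNAJC3, with −0.39 (standard error 0.0915, edgeR quasi-likelihood adjusted p = 0.0255). The call depended on single libraries. In edgeR's quasi-likelihood test it was lost without WT TM replicate 1 (adjusted p = 0.0824) or 3 (0.0715), shXBP1 ctr replicate 2 (0.0703) or shXBP1 TM replicate 3 (0.0637), with values of −0.39 to −0.34. DNAJC25 had −0.49 (adjusted p = 0.0926) and passed without shXBP1 ctr replicate 3 (−0.58, adjusted p = 0.0346). DNAJC10 had −0.31 (adjusted p = 0.0878) and passed without WT ctr replicate 2 or shXBP1 ctr replicate 2 (−0.37 in both, adjusted p = 0.0448 and 0.0425), and DESeq2 called it (−0.30, adjusted p = 0.0323). Over the whole table, the 63 genes called higher were 24 to 41 without any 1 of WT ctr replicates 1 and 2, WT TM replicate 3, shXBP1 ctr replicates 2 and 3 and shXBP1 TM replicates 2 and 3, and 98 without WT ctr replicate 3. DNAJB9 had −0.29 and DNAJB11 −0.20, with adjusted p of 0.414 and 0.165 from edgeR's quasi-likelihood test.

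**Figure D4:**
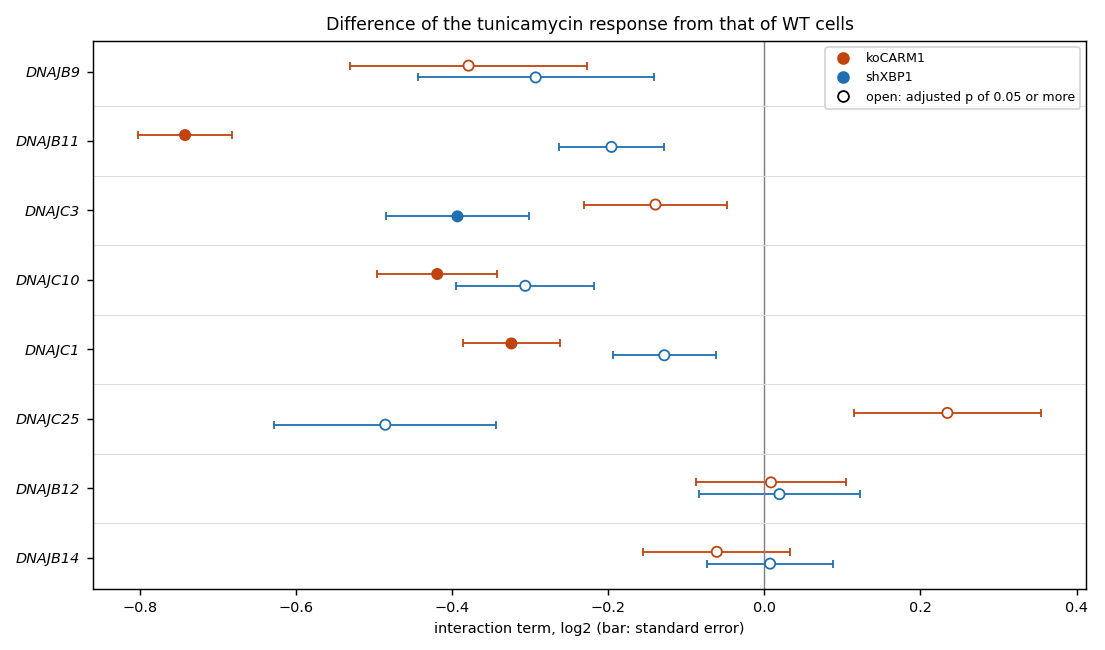
Interaction term on the log2 scale, the response to TM in koCARM1 or shXBP1 cells minus that in WT cells, for the 8 genes, with standard errors as bars and open symbols for an adjusted p of 0.05 or more. In koCARM1, DNAJB11 (−0.74), DNAJC10 (−0.42) and DNAJC1 (−0.32) lie below 0 and pass the test, and in shXBP1 DNAJC3 (−0.39) does.

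Over the 6 groups, the order of the levels differed between members. DNAJB9 and DNAJC10 ran from WT TM through shXBP1 TM, koCARM1 TM and WT ctr to the other ctr groups. The libraries of shXBP1 ctr overlapped those of koCARM1 ctr in both genes and those of WT ctr in DNAJC10, and the other groups were apart. For DNAJB11 the top neighbours, WT TM and shXBP1 TM, overlapped and all others were apart. For DNAJC3 the top neighbours were koCARM1 TM and WT TM, which overlapped, and WT ctr overlapped each of the other ctr groups, which were apart from each other. DNAJC25 split into koCARM1 TM with WT TM above and the other 4 groups below, and shXBP1 TM fell among the ctr groups. DNAJC1 had the 3 TM groups apart and above the ctr groups, of which shXBP1 and WT overlapped. For DNAJB12 both koCARM1 groups stood above all others, and for DNAJB14 both stood below all others.

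The genes with the most similar pattern were sought by the root mean square difference of centred mean log2 CPM over the 6 groups, among the 9524 genes that averaged 3 or more in log2 CPM. Those nearest to DNAJB9 were SLC6A9 (0.257), DERL3 (0.313) and HYOU1 (0.413), beside a median of 1.86 over all these genes. TUBE1 (0.128), EIF2AK3 (0.135) and GARS1 (0.168) were nearest to DNAJB11, and SYVN1 (0.109), GOT1 (0.199) and AMIGO3 (0.220) to DNAJC3. EIF2AK3 encodes the sensor PERK, and SYVN1 the ubiquitin ligase HRD1 of ER-associated degradation. MIS12 (0.0761), SLC33A1 (0.109) and ATF6 (0.120) were nearest to DNAJC10, and TXNDC5 (0.0713), SEC61G (0.109) and RPL28 (0.112) to DNAJC25. DNAJC1, DNAJB12 and DNAJB14, which varied less, had their nearest genes CGGBP1, MYSM1 and FAN1 at 0.0333, 0.0339 and 0.0274, beside medians of 0.478, 0.443 and 0.423. No member was among the 3 nearest genes of another, and the closest pair of members was DNAJC1 and DNAJB14 (0.261).

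The Hsp70 partners of these proteins were given from a list of 7 genes. With tunicamycin in WT cells, 5 of 7 rose and 2 fell, against 22.0% and 19.9% of all genes tested. HSPA5, which encodes BiP, rose by 3.08 on the log2 scale, its exchange factors HYOU1 and SIL1 by 2.87 and 1.03, SDF2L1, a partner of the DNAJB11 product, by 2.86, and SEC63, itself a J-domain gene of the translocon, by 1.65. HSPA8, the cytosolic Hsp70 that serves DNAJB12 and DNAJB14, fell by 2.13 on the log2 scale, and SDF2 fell by 0.38. In koCARM1 the interaction was higher for HSPA5 (0.67), SDF2L1 (0.80) and HSPA8 (0.35) and lower for SEC63 (−0.80). Of all genes tested, 10.5% were higher and 12.4% lower in that test. HSPA5 and SDF2L1 thus had interaction terms of the opposite sign to DNAJB11, and both were lower in koCARM1 ctr than in WT ctr, by log2 fold changes of −0.42 and −1.31. In shXBP1 the interaction was lower for SDF2L1 (−0.38) among the 7, against 1.67% of all genes tested called lower and 0.364% higher.

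Of 6 genes whose products these co-chaperones bind or act with, all 6 rose with tunicamycin in WT cells. The share of all genes tested called higher was 22.0%. SEL1L, of the HRD1 complex of ER-associated degradation, rose by 3.63, and EDEM1, which hands clients to DNAJC10, by 2.24. EIF2AK3 and ERN1, which encodes IRE1, rose by 2.23 and 1.47, RNF5, a ubiquitin ligase that works with DNAJB12, by 0.59, and SGTA by 0.67. The SGTA libraries ran from 12.2 to 14.1 CPM with ctr and from 10.6 to 29.5 with TM and so overlapped. In koCARM1 the interaction was lower for SEL1L (−1.11) and RNF5 (−0.45), and in shXBP1 for EDEM1 (−0.76) and SEL1L (−0.55). The shares of all genes tested called lower were 12.4% in koCARM1 and 1.67% in shXBP1. SEL1L was thus called in both tests, which share the WT libraries.

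The 34 other J-domain genes on the list changed in both directions. Most of their products lie outside the ER, but that of DNAJC14, for one, is an ER membrane protein. In WT cells 16 of 34 were higher with tunicamycin and 8 lower, against 22.0% and 19.9% of all genes tested. The median log2 fold change was 0.22, beside 6 of 8 higher, 0 lower and a median of 1.28 for the ER members. The highest log2 fold change among the 34 was 4.06, for DNAJC12, which had only 2 to 203 counts per library over the 18 libraries. In koCARM1 cells 11 were higher and 7 lower with tunicamycin, against 20.6% and 18.8% of all genes tested. In shXBP1 cells 10 were higher and 8 lower, against 19.2% and 19.0%. Against WT cells, 14 of the 34 were higher and 12 lower in koCARM1 ctr, against 37.5% and 36.9% of all genes tested. In koCARM1 TM 11 were higher and 13 lower, against 38.4% and 36.8%, so these counts were near the background. The koCARM1 interaction called 3 higher and 13 lower, against 10.5% and 12.4% of all genes tested. The 13 called lower were 38.2% of the list, beside 37.5% of the ER members. In shXBP1, 1 was higher and 0 lower with ctr, against 2.07% and 3.03% of all genes tested. With TM 1 was higher and 3 were lower, against 6.99% and 8.55%. In the shXBP1 interaction 0 passed by edgeR's quasi-likelihood test, against 0.364% higher and 1.67% lower.

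**Figure D5:**
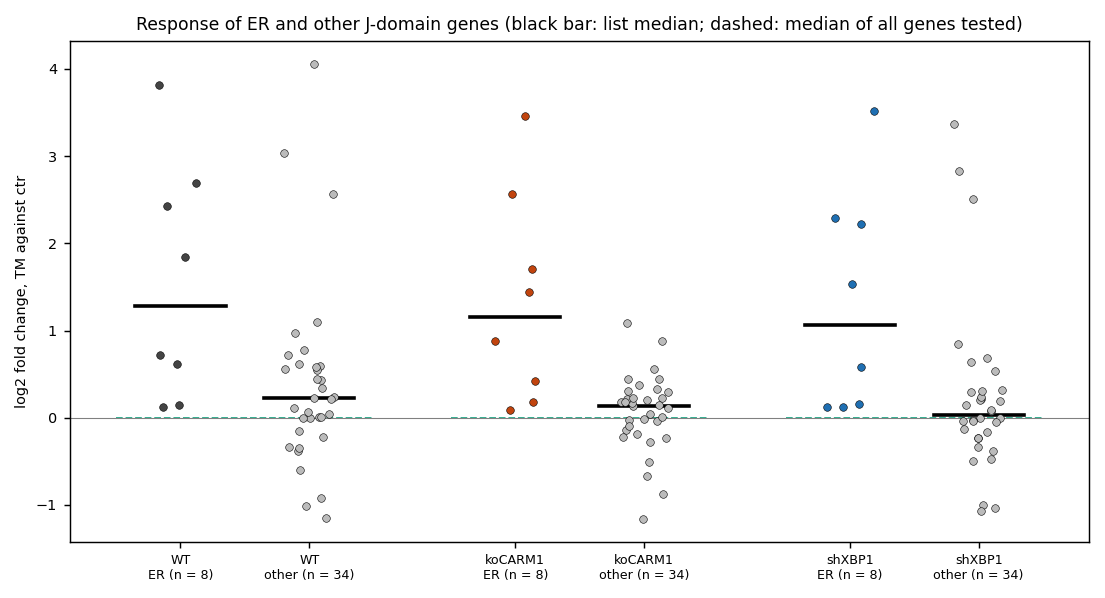
Log2 fold change of TM against ctr in 3 genotypes for the 8 ER J-domain genes (coloured) and 34 other J-domain genes (grey), each point 1 gene, with black bars at the list medians and a dashed line at the median of all genes tested. The ER members lie at or above 0.09 in each genotype with medians of 1.28, 1.16 and 1.06, and the other genes spread to both sides of 0 with medians of 0.22, 0.14 and 0.04.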

How the data were processed

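Libraries were made from total RNA with a Lexogen 3′ mRNA kit and sequenced as 75 nt single reads. Per the methods, the authors aligned them to hg19 with bowtie2 and deposited RSEM expected counts per Ensembl gene as whole numbers, without normalization. The submitters' processing notes list RSEM 1.2.3, the methods another version. All columns were matched to samples by name (0 unmapped), and libraries were put in groups by their labels. Dose and time are from the methods.

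In R 4.3.3, edgeR 4.0.16 (with limma 3.58.1) was run with filterByExpr at a minimum count of 10 over all 18 libraries, TMM normalization and quasi-likelihood F tests on the groups compared. Benjamini-Hochberg adjustment ran over 17317 genes, with calls at 0.05. Standard errors are the log2 fold change over the square root of F. Log2 CPM used a prior count of 2. Replicate pairs differed beyond counting error (chi-square per degree of freedom 1.84 to 7.47 over 18 pairs), so none was taken as 1 library read again. The check cannot tell separate cultures from separate libraries of 1 culture. Scripts were tested on simulated data. Symbols and positions are from a GRCh37 annotation. Promoters are from RefSeq.

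All 8 members and 3 lists (Hsp70 partners, clients, other J-domain genes, with the highest and lowest of the last) are named, with the 3 genes most like each member. A single value from the list of other J-domain genes is not reported here. Members and lists were chosen with earlier results of these data known. Of the marker lists, leukocyte genes summed to 2.23 to 4.94 CPM and endothelial genes to at most 0.318. Alternatives were DESeq2 1.42.0, its size factors, other filters, all libraries in 1 fit, an FDR of 1%, a replicate block, a 5 Mb window and each library left out. Neither CUT&RUN data nor protein sequences were analysed here.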

Additional observations from a re-analysis of the deposited data

Results flagged for a closer look

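In 4 cases the response of a member to tunicamycin differed between a modified genotype and WT cells by the interaction test in edgeR. Of all genes tested, 12.4% were called lower in koCARM1 and 1.67% in shXBP1. The koCARM1 calls were 37.5% of the 8 members, beside 38.2% called lower among the 34 other J-domain genes, so they were not particular to the members. In koCARM1 cells the terms were −0.74 for DNAJB11, −0.42 for DNAJC10 and −0.32 for DNAJC1 on the log2 scale, each a smaller rise than in WT cells. In shXBP1 cells the term was −0.39 for DNAJC3. That call was lost without WT TM replicate 1 or 3, shXBP1 ctr replicate 2 or shXBP1 TM replicate 3, and at an FDR of 1%. The marker levels given for the koCARM1 libraries stand beside the 3 koCARM1 terms, and their part in these terms was not tested. Each library was left out in turn, but no test for outlying libraries was made within the groups of 3 libraries.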

How the results depend on the processing

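Of 72 tests of members, 55 kept their direction and their side of the threshold under every alternative. Of 1032 values under alternatives, 986 kept both, 12 lost a call, 15 gained one and 19 turned sign, none of these 19 being called. The causes were not tested. Depth limits DNAJB9 with ctr most, at 37 counts in its lowest library.

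At an FDR of 1%, the genes called over the whole table were 125 higher and 252 lower in shXBP1 ctr, 523 and 823 in shXBP1 TM, 1112 and 1419 in the koCARM1 interaction and 12 and 155 in the shXBP1 interaction, and 0 members remained called in the last. With no filter, 632 were higher in shXBP1 ctr, and 263 were higher and 469 lower in the shXBP1 interaction, with 3 members lower. With all libraries in 1 fit, 696 were higher in shXBP1 ctr and 119 in the shXBP1 interaction, and 2 members were higher in koCARM1 ctr. DESeq2 gave 104 higher and 2 members lower in the shXBP1 interaction. DESeq2's size factors, or at least 10 counts in every library, gave 2 members higher in koCARM1 TM against WT TM. The uncalled DNAJB14 term in koCARM1 turned to 0.0097 with no filter and to 0.00085 with at least 10 counts. Under DESeq2's size factors, 1 of 48 mean levels moved by over 1 SD, DNAJB11 in koCARM1 ctr (107 CPM). Within 5 Mb, the neighbours' medians in koCARM1 ctr and TM were −0.27 and −0.49 for DNAJC10, −0.21 and −0.30 for DNAJB14 and, with ctr, 0.14 for DNAJB12 and −0.14 for DNAJB11, the sign turned in each, and −0.53 and −0.65 for DNAJC1.

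With 1 library left out, members higher ranged from 1 to 2 in koCARM1 against WT with ctr and with TM and from 0 to 1 in the koCARM1 interaction, and members lower from 0 to 2 in the shXBP1 interaction. Genes called ranged from 146 to 580 higher and 289 to 654 lower in shXBP1 ctr, 617 to 1055 and 906 to 1416 in shXBP1 TM, and 24 to 98 higher in the shXBP1 interaction. The uncalled values whose sign turned ranged from −0.014 to 0.082 for DNAJC3 in koCARM1 TM against WT TM, −0.11 to 0.057 for DNAJC3 in shXBP1 ctr, −0.069 to 3.5e-05 for DNAJB12 in shXBP1 TM against WT TM, and in the koCARM1 interaction −0.13 to 0.035 for DNAJB14, −0.17 to 0.018 for DNAJC3 and −0.029 to 0.14 for DNAJB12. In the shXBP1 interaction they ranged from −0.029 to 0.085 for DNAJB12 and −0.034 to 0.044 for DNAJB14.

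Libraries with the same replicate number did not deviate together from their group means (correlations of −0.0513 to 0.0451). Libraries with different numbers had correlations of −0.0835 to 0.0945. No pairing by number was seen, but the check cannot exclude one, as each group mean rests on 3 libraries. With a replicate block, 39 genes were higher in the shXBP1 interaction and 2 members lower, as DNAJC25 passed (−0.48, edgeR quasi-likelihood adjusted p = 0.0436). The block changed no other call of a member.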
